A study of Mus musculus with 4 samples.

Results

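Adherens junctions hold neighbouring cells together by the extracellular domains of cadherins and nectins, and tie these proteins to actin filaments by catenins, afadin and vinculin. The genes described here are 10 of this machinery: the cadherins Cdh1 and Cdh2, the catenins Ctnna1, Ctnnb1 and Ctnnd1, the nectins Nectin1, Nectin2 and Nectin3, the nectin partner Afdn, and Vcl, the gene of vinculin. They were chosen by symbol, and the transcripts of the array were matched to them by RefSeq accession. Of the 10 genes 9 were measured, by 11 of the 25631 transcripts on the array: Nectin3 by 3 transcripts and the other 8 genes by 1 each. Afdn had no matched accession and was not analysed here.

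RNA was taken from the testes of male mice on postnatal day 9. The 3 arrays labelled Dmrt1 KO came from Cre-positive testes in which Dmrt1, the gene of a DM domain transcription factor, was targeted conditionally with DHH-cre, and the 1 control array came from Cre-negative testes, also labelled DHH-cre. The desert hedgehog gene, from which the driver takes its name, is active in Sertoli cells, the somatic cells that surround the germ cells. The labels give neither the targeted allele nor the strain, and they do not say whether the 3 Dmrt1 KO arrays came from separate animals, so p-values measure the spread between these arrays, which may be technical. The comparison asks how testis expression differs when Dmrt1 is conditionally targeted.

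In the testis the same junction proteins build a specialised structure, the ectoplasmic specialization, where bundled actin lies under the Sertoli cell membrane. It forms near the base of the tubule between neighbouring Sertoli cells, and later at the heads of elongating spermatids, where nectin-2 of the Sertoli cell binds nectin-3 of the spermatid. Testes of this age hold spermatogonia and the first cells to enter meiosis but no elongating spermatids. The array measures whole tissue, so fewer cells of a type and less RNA per cell cannot be told apart.

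Values are log2 of the authors' RMA intensity, a background-corrected and normalised brightness per transcript. The 4 arrays had median intensities between 1005 and 1011. Dmrt1 itself had log2 levels of 13.23, 13.38 and 13.66 on the Dmrt1 KO arrays, against 14.16 on the control array. It was lower on all 3 Dmrt1 KO arrays, by 1.66-fold, and did not pass the test (limma, adjusted p = 0.586). Where its probes lie relative to the targeted part is not known here. With 1 control array the spread was estimated from the Dmrt1 KO arrays alone, and any peculiarity of the control counts as a difference between the groups.

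None of the 11 adherens junction transcripts passed the test. limma, with Benjamini-Hochberg adjustment over the whole table and an adjusted p under 0.05 as threshold, called 0 of 11, with a lowest adjusted p of 0.268. It called 0.655% of all transcripts, 0.499% lower and 0.156% higher. No call over the table was on a log2 difference under 1.35 in size, and each of the 11 differed by less. At an unadjusted p under 0.05 there were 2 of the 11 (18.2%), a Nectin3 transcript that was higher and Vcl, which was lower, where 6.42% of all transcripts reached that level. The median difference was -0.07 over the 11 transcripts and 0.0043 over all transcripts. The median size of the difference, without its sign, was 0.20 for both.

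**Figure D1:**
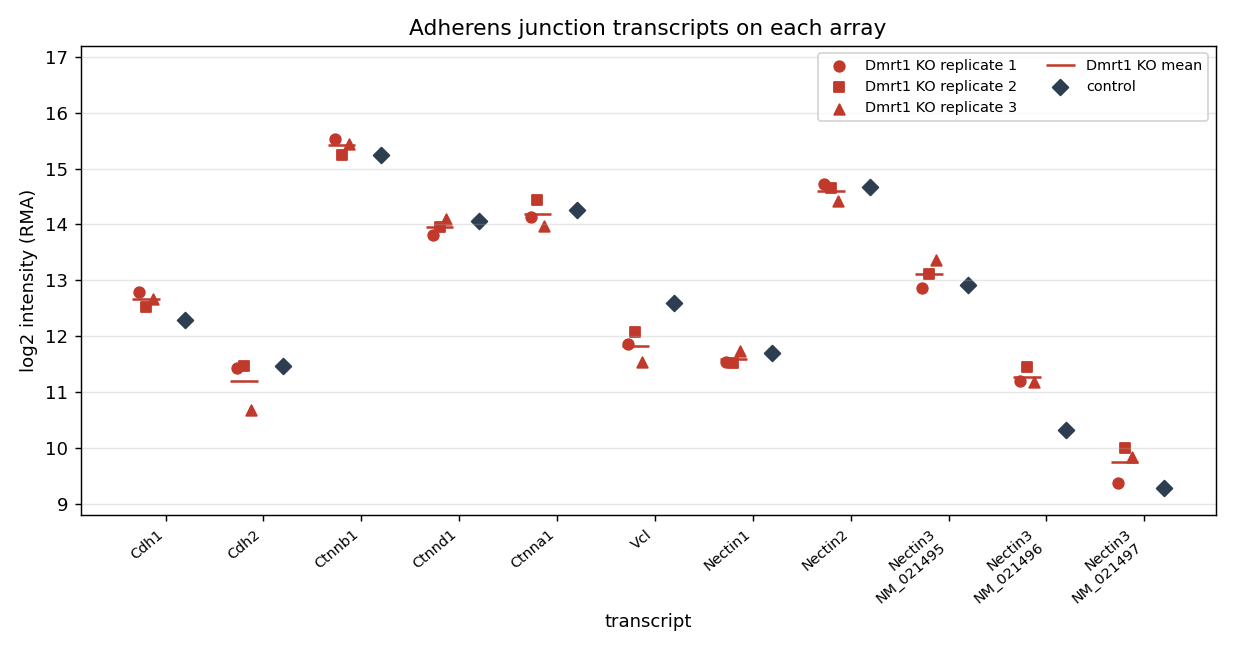
Log2 RMA intensity (vertical axis) of each adherens junction transcript (horizontal axis) on the 3 Dmrt1 KO arrays (red circle, square and triangle for replicates 1, 2 and 3, with a bar at their mean) and on the control array (dark diamond). For Vcl the 3 Dmrt1 KO points (11.54 to 12.08) lie below the control at 12.59, and for Nectin3 NM_021496 they (11.18 to 11.44) lie above the control at 10.32; heights of different transcripts come from different probes and are not comparable.

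The plot of levels by array shows all 3 Dmrt1 KO arrays on one side of the control for 5 of the 11 transcripts (45.5%), 4 of them higher and 1 lower. Over the whole table this held for 49.8% of transcripts, 25.6% higher and 24.1% lower, so the share among the junction transcripts was near the background. For the other 6 transcripts the control lay within the range of the Dmrt1 KO arrays. The median SD among the Dmrt1 KO arrays was 0.16 on the log2 scale for the junction transcripts, against 0.21 for all transcripts. These sets were not matched for brightness, and whether the junction transcripts vary less was not tested.

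Cdh1 encodes E-cadherin, which in the mouse testis marks undifferentiated spermatogonia. Its transcript NM_009864 had log2 levels of 12.79, 12.53 and 12.67 on the Dmrt1 KO arrays and 12.29 on the control array. All 3 Dmrt1 KO arrays were above the control, and the groups did not overlap. The difference was 0.37 ± 0.26 (SE, 3 Dmrt1 KO arrays and 1 control array), or 1.29-fold higher, and its 95% interval reached from 1.15-fold lower to 1.93-fold higher (limma, adjusted p = 0.968).

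Cdh2 encodes N-cadherin, the cadherin that joins Sertoli cells to each other and to germ cells. Its transcript NM_007664 had log2 levels of 11.42, 11.47 and 10.68 on the Dmrt1 KO arrays and 11.46 on the control array. Dmrt1 KO replicates 1 and 2 lay at the control level, and replicate 3 alone was low. The SD among the Dmrt1 KO arrays was 0.45, the widest of the 11, and 8.33% of all transcripts had an SD as large. The difference was -0.26 ± 0.34 (SE; limma, adjusted p = 0.999), and it was -0.01 without Dmrt1 KO replicate 3.

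The catenins bind the inner tail of the cadherins. Ctnnb1 encodes beta-catenin, which binds the tail directly and also carries Wnt signals into the nucleus. Its transcript NM_007614 had log2 levels of 15.54, 15.25 and 15.45 on the Dmrt1 KO arrays and 15.24 on the control array. Replicate 2 lay only 0.01 above the control, replicates 1 and 3 lay 0.30 and 0.22 above it, and the groups did not overlap. The difference was 0.18 ± 0.26 (SE; limma, adjusted p = 0.999), with a 95% interval from 1.33-fold lower to 1.69-fold higher, and it was 0.11 without Dmrt1 KO replicate 1.

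Ctnnd1 encodes p120-catenin, which slows the removal of cadherins from the membrane. Its log2 levels were 13.81, 13.95 and 14.09 on the Dmrt1 KO arrays and 14.06 on the control array, so that the control lay inside their range. The difference was -0.11 ± 0.26 (SE; limma, adjusted p = 0.999), with a 95% interval from 1.62-fold lower to 1.38-fold higher, and it was -0.04 without Dmrt1 KO replicate 1 and -0.18 without replicate 3.

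Ctnna1 encodes alpha-E-catenin, the link from beta-catenin to actin. It had log2 levels of 14.14, 14.44 and 13.97 on the Dmrt1 KO arrays and 14.26 on the control array. Replicate 2 was above the control and replicates 1 and 3 below it. The difference was -0.07 ± 0.28 (SE; limma, adjusted p = 0.999), with a 95% interval from 1.62-fold lower to 1.46-fold higher, and it turned to 0.03 without Dmrt1 KO replicate 3.

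Vcl encodes vinculin, which binds alpha-catenin and actin when a junction is under tension. Its transcript NM_009502 had log2 levels of 11.86, 12.08 and 11.54 on the Dmrt1 KO arrays and 12.59 on the control array. As intensities these were 3728, 4327 and 2974 on the Dmrt1 KO arrays, against 6182 on the control array. All 3 Dmrt1 KO arrays lay below the control, by 0.73, 0.51 and 1.06, and the groups did not overlap. The difference was -0.77 ± 0.29 (SE), or 1.70-fold lower, with a 95% interval from -1.41 to -0.13 (limma, adjusted p = 0.586, unadjusted p = 0.0235). Of all transcripts 4.11% had a difference at least as large in either direction.

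**Figure D2:**
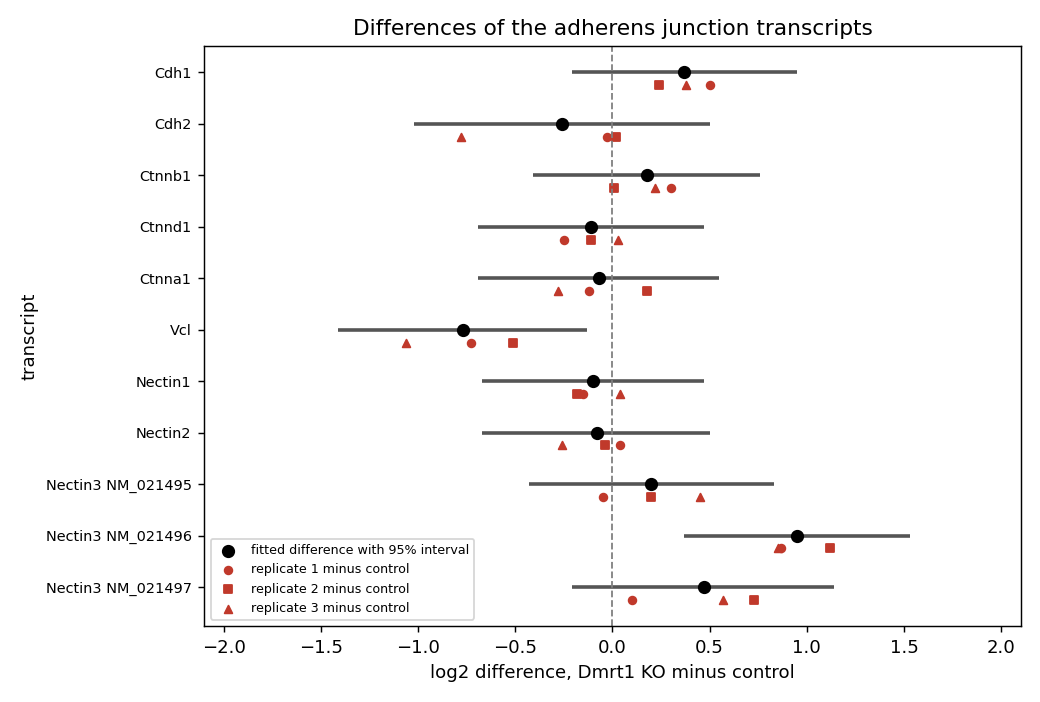
Log2 difference, Dmrt1 KO minus control (horizontal axis), for each adherens junction transcript (vertical axis): black points are fitted differences, lines their 95% intervals (unadjusted), and small red marks the 3 Dmrt1 KO arrays, each minus the control. The intervals of Vcl (-1.41 to -0.13) and of Nectin3 NM_021496 (0.37 to 1.53) lie off 0, and those of the other 9 transcripts include it.

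The promoters of Vcl and, further on, of Nectin3 are printed because these genes had the junction transcripts with the smallest p in each direction. The sequence runs from 250 bases before to 50 bases after the gene's start, from RefSeq on GRCm38.p6. That of Vcl lies at chr14:20929148-20929447 on the plus strand. The capitals mark a match to the CArG box, the element bound by serum response factor.
Vcl: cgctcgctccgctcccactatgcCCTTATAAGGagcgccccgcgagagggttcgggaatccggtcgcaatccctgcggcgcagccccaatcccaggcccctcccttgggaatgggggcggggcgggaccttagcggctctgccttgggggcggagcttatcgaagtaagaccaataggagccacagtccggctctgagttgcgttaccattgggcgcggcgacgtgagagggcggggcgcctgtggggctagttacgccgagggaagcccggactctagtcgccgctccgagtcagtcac
The match begins 227 bases before the start. The CArG box was chosen after this sequence was seen, so its match in Vcl is no independent finding. The box was searched on both strands, and 1.63% of the 32851 promoters in the RefSeq set hold one. The set held 7 promoters of 5 of the measured junction genes (Ctnnb1, Ctnnd1, Nectin2, Nectin3 and Vcl), and that of Vcl was the 1 with a match. The motif ACANTGT, the core of the element that DM domain proteins bind, which reads the same on both strands, was in 0 of these 7 promoters and in 7.54% of the whole set. A match or its absence in this window is a description of the letters.

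Nectins are immunoglobulin-type adhesion proteins that bind each other across the gap between cells and recruit afadin to their tails. Nectin1 encodes nectin-1, a partner of nectin-3. Its log2 levels were 11.54, 11.51 and 11.73 on the Dmrt1 KO arrays and 11.69 on the control array. The control lay inside the Dmrt1 KO range, and the difference was -0.10 ± 0.26 (SE; limma, adjusted p = 0.999), with a 95% interval from 1.60-fold lower to 1.39-fold higher. It was -0.06 without Dmrt1 KO replicate 2 and -0.17 without replicate 3.

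Nectin2 encodes nectin-2, the nectin of Sertoli cells. Its log2 levels were 14.72, 14.65 and 14.42 on the Dmrt1 KO arrays and 14.68 on the control array. Replicate 1 lay just above the control and replicates 2 and 3 below it. The difference was -0.08 ± 0.26 (SE; limma, adjusted p = 0.999), with a 95% interval from 1.59-fold lower to 1.42-fold higher, and it was 0.00 without Dmrt1 KO replicate 3.

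Nectin3 encodes nectin-3, known as the spermatid partner of nectin-2. Its 3 transcripts had fitted differences above 0 of different sizes. NM_021496 had log2 levels of 11.20, 11.44 and 11.18 on the Dmrt1 KO arrays and 10.32 on the control array, and as intensities 2345, 2780 and 2315, against 1281 on the control array. All 3 Dmrt1 KO arrays lay above the control, by 0.87, 1.12 and 0.85. The difference was 0.95 ± 0.26 (SE), or 1.93-fold higher, with a 95% interval from 0.37 to 1.53 (limma, adjusted p = 0.268, unadjusted p = 0.00467). Of all transcripts 2.44% had a difference at least as large in either direction.

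NM_021497 had log2 levels of 9.37, 10.00 and 9.84 on the Dmrt1 KO arrays and 9.27 on the control array. All 3 Dmrt1 KO arrays lay above the control, replicate 1 by only 0.10. The difference was 0.47 ± 0.30 (SE; limma, adjusted p = 0.953). NM_021495 had log2 levels of 12.87, 13.12 and 13.37 on the Dmrt1 KO arrays and 12.92 on the control array. Here replicate 1 lay below the control and the groups overlapped, with a difference of 0.20 ± 0.28 (SE; limma, adjusted p = 0.999), which was 0.07 without Dmrt1 KO replicate 3 and 0.32 without replicate 1.

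The log2 ratio of NM_021496 to NM_021495 within each array was -1.67, -1.68 and -2.19 on the Dmrt1 KO arrays and -2.60 on the control array. The ratio was higher on all 3 Dmrt1 KO arrays, by 0.75 on average (SD among the Dmrt1 KO arrays 0.30). The same ratio for NM_021497 was higher by 0.27. These differences between transcripts of the gene were not tested, and the parts of the transcripts that the probes cover are not known here. The 95% intervals of all 3 overlap, but they treat each transcript apart and do not measure the spread of the within-array ratio.

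The promoter of Nectin3 lies at chr16:46496918-46497217 on the minus strand (GRCm38.p6), and the set holds 1 promoter for the gene. The capitals mark the GC box GGGCGG, the element bound by Sp1.
Nectin3: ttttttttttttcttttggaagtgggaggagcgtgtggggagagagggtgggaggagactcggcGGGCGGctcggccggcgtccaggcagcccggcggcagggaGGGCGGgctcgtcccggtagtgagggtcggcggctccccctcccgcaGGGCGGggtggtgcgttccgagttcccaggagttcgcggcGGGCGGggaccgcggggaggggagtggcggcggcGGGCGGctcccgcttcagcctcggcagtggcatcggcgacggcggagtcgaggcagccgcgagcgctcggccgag
The promoter holds 5 matches, searched on both strands, to a motif chosen after the sequence was seen. The GC box is common, in 35.7% of all promoters of the set and in 5 of the 7 junction promoters.

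**Figure D3:**
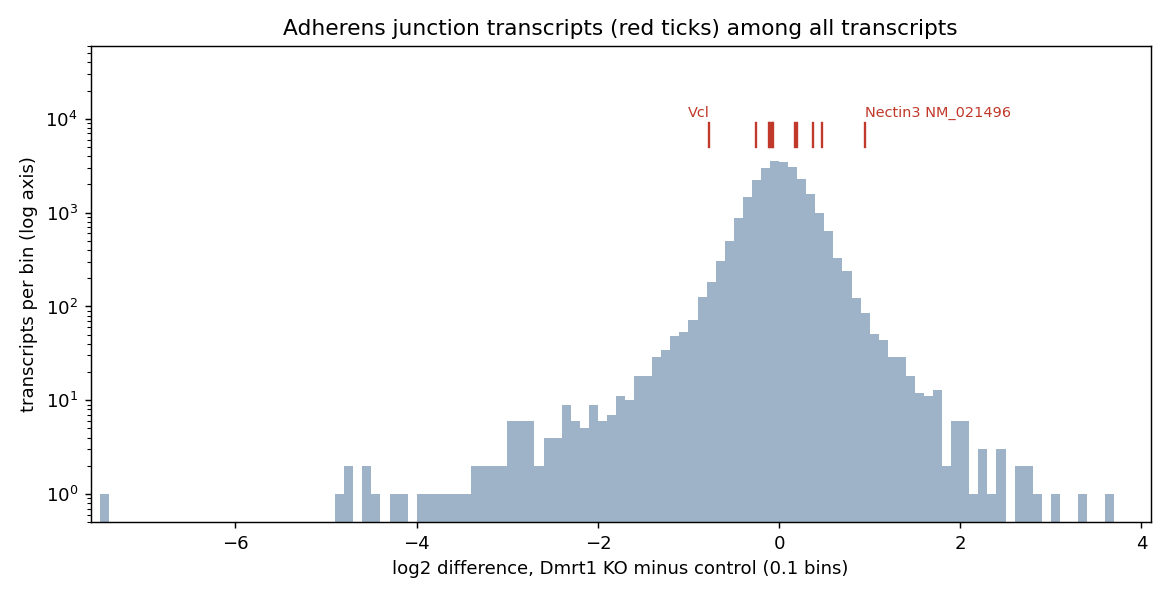
Number of transcripts (vertical axis, log scale) by log2 difference, Dmrt1 KO minus control (horizontal axis, bins of 0.1), over all 25631 transcripts, with a red tick for each of the 11 adherens junction transcripts. The ticks run from -0.77 for Vcl to 0.95 for Nectin3 NM_021496 and 9 of the 11 lie within 0.5 of 0.

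Other genes of the same machinery did not pass either. In the partner and marker lists the transcript with the highest mean level stands for a gene, unless said otherwise. Among the other cadherins, 0 of 16 measured genes rose and 0 fell, with a median difference of 0.04. Those with the smallest p were Cdh11, a cadherin of mesenchymal cells, with log2 levels of 9.97, 9.60 and 9.60 on the Dmrt1 KO arrays, against 9.01 on the control array, and a difference of 0.71 ± 0.27 (SE; limma, adjusted p = 0.616), and Cdh24 with a difference of 0.66 ± 0.28 (adjusted p = 0.738). At an unadjusted p under 0.05 (limma) there were 2 of the 16. Of all transcripts 6.42% reached that level, and the same share is the background for the partner lists that follow.

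Among the other catenins and proteins of the cadherin tail, 0 of 10 rose or fell by limma, 1 had an unadjusted p under 0.05 by its brightest transcript and 2 by any transcript (Ctnnd2 and Ctnna2), and the median difference was 0.13. Ctnnd2, the gene of delta-catenin, a relative of p120-catenin, had log2 levels of 10.87, 10.41 and 11.38 on the Dmrt1 KO arrays and 11.98 on the control array. All 3 Dmrt1 KO arrays were lower, by -1.09 ± 0.35 on the log2 scale (SE; limma, adjusted p = 0.438). Ctnna2, the gene of alpha-N-catenin, had a difference of 0.48 ± 0.31 (adjusted p = 0.953) in its brighter transcript NM_145732 (0.33 to 0.67 on leaving out each Dmrt1 KO array) and of 0.67 ± 0.29 (adjusted p = 0.734, unadjusted p = 0.0405) in NM_009819.

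Of the other nectins and nectin-like proteins, limma called 0 of 6, 1 had an unadjusted p under 0.05, and the median difference was -0.21. Cadm1, an adhesion protein of the nectin-like family found on germ cells, had log2 levels of 13.86, 13.46 and 13.54 on the Dmrt1 KO arrays and 14.27 on the control array. The groups did not overlap, and the difference was -0.66 ± 0.27 (SE; limma, adjusted p = 0.711). Cadm4 had a difference of -0.66 ± 0.40 (SE; limma, adjusted p = 0.937), which was -0.32 without Dmrt1 KO replicate 2.

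Of the actin linkers of these junctions, limma called 0 of 24, 2 had an unadjusted p under 0.05, and the median difference was -0.03. Ssx2ip encodes an afadin-binding protein that also binds alpha-actinin. It had log2 levels of 11.06, 11.15 and 11.05 on the Dmrt1 KO arrays and 11.92 on the control array. The 3 Dmrt1 KO arrays lay close together and below the control, and the difference was -0.84 ± 0.25 (SE; limma, adjusted p = 0.365). Wasl, the gene of the actin nucleation promoter N-WASP, had a difference of -0.63 ± 0.25 (adjusted p = 0.667).

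Of the kinases, phosphatases and integrin partners that act on these junctions, limma called 0 of 24. By the brightest transcript 0 had an unadjusted p under 0.05, and over all 28 transcripts of the list 1 did, of Dnm3. The median difference was -0.16, with 17 of the 24 below 0, against a median of 0.0043 over all transcripts. All 3 Dmrt1 KO arrays lay below the control for 11 and above it for 3, against 24.1% and 25.6% of all transcripts. Whether the list differs from all transcripts was not tested. Ptprk and Ptprm, receptor phosphatases that bind cadherin complexes, had differences of 0.57 ± 0.26 and -0.53 ± 0.25 (SE; limma, adjusted p = 0.791 and 0.823). Dnm3, a dynamin named after its values were seen, was measured by a pair of transcripts. NM_001038619 differed by -1.23 ± 0.29 (SE; limma, adjusted p = 0.14, unadjusted p = 0.00158), and the brighter NM_172646 by -0.42 ± 0.34 (adjusted p = 0.988), which was -0.18 without Dmrt1 KO replicate 1.

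**Figure D4:**
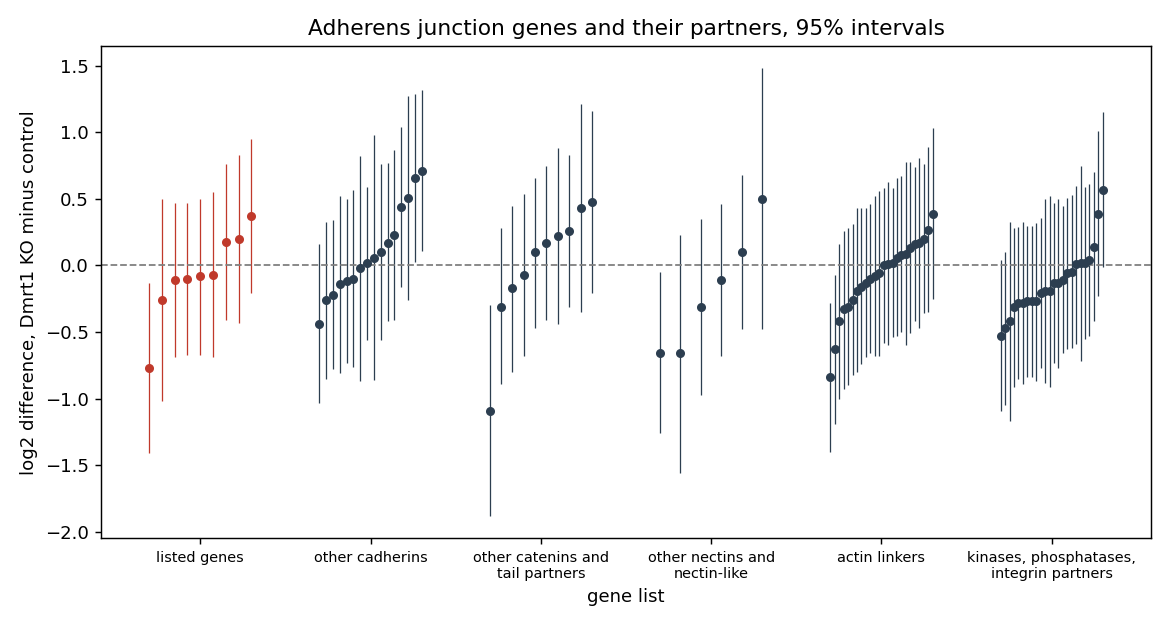
Log2 difference, Dmrt1 KO minus control (vertical axis), with its 95% interval (unadjusted), for each measured gene of the 9 junction genes (red) and of the 5 partner lists (dark), sorted within each list along the horizontal axis; the brightest transcript stands for a gene. The fitted differences run from -1.09 for Ctnnd2 to 0.71 for Cdh11, and no gene shown passed the test.

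Sertoli cell markers lay on both sides of the control on the same arrays. Of 18 measured 4 fell and 0 rose, with a median difference of -0.15. At an unadjusted p under 0.05 (limma) there were 7 of the 18, where 6.42% of all transcripts reached that level. All 3 Dmrt1 KO arrays lay below the control for 9 and above it for 5, against 24.1% and 25.6% of all transcripts. Those that fell were Cst9 by 2.89, Defb36 by 2.20, Cldn11 by 1.72 and Gata1 by 1.55 on the log2 scale (limma, adjusted p = 0.0111, 0.0143, 0.0211 and 0.0248). With 50 intensity units added before log2 the first and second of these differed by -2.87 and -2.19 and no longer passed (adjusted p = 0.0677 and 0.0604). Those with all 3 Dmrt1 KO arrays above the control were Inha (0.64), Gata4 (0.51), Wt1 (0.42), Dhh (0.39) and Kitl (0.34), and none of these passed. Also not passing, but with all 3 Dmrt1 KO arrays below the control, were Fshr (-1.12), Clu (-0.62), Ctsl (-0.57), Sox9 (-0.56) and Amh (-0.05). Both sets were named after their values were seen. The summed intensity of the list ran from 184268 to 188749 on the Dmrt1 KO arrays, against 264911 on the control array. That of the 14 markers that did not pass ran from 156131 to 161121 on the Dmrt1 KO arrays, against 161973 on the control array. These 14 were picked by not passing on these same arrays, so their sum is no independent measure of Sertoli cells. Of 14 germ cell markers none passed by limma, 1 had an unadjusted p under 0.05, and their sum ran from 178233 to 203300 on the Dmrt1 KO arrays, against 180947 on the control array. In the duct and rete list 1 of 10 rose, Krt18, a keratin of simple epithelia, by 1.73 (limma, adjusted p = 0.0138), and 2 had an unadjusted p under 0.05. The other was Cldn7 at -0.96 ± 0.32 (SE; limma, adjusted p = 0.465), named after its values were seen. The list's median difference was 0.28, while its sum was 21611 to 24512 on the Dmrt1 KO arrays, against 25365 on the control array. Most of this sum was Epcam, at 15489, 13157 and 14588 on the Dmrt1 KO arrays, against 19331 on the control array. Epcam too was named after its values were seen. By difference 8 of the 10 genes lay above 0, and 2, Cldn7 and Epcam, below.

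The Leydig, peritubular myoid, macrophage and endothelial lists had 0 calls by limma among 8, 7, 9 and 9 genes. At an unadjusted p under 0.05 (limma) there were 1, 2, 2 and 0, where 6.42% of all transcripts reached that level. The median differences of these lists were 0.25, -0.09, 0.43 and 0.04. In the same order 5, 1, 9 and 5 genes had a difference above 0. All 3 Dmrt1 KO arrays lay above the control for 3, 1, 7 and 2 of them, against 25.6% of all transcripts. They lay below it for 0, 2, 0 and 0, against 24.1%. No marker was listed at 0, and the table has no detection calls by which to say that a marker is absent. The part of these cell types in the values of Vcl, Nectin3 and the other junction genes was not tested.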

How the data were processed

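Each deposited value is a linear-scale intensity of a RefSeq transcript on an array. The authors used RMA, per the submitters' processing notes, on signals from Cy3-labelled RNA on a one-colour NimbleGen array per the labels' protocols. RMA's version and settings and the probe positions are not given in the sources used here. Of the 25631 transcripts, 17780 (69.4%) were named through RefSeq accessions of GRCm38.p6.

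From these, log2 was taken with no filter on low values, and limma 3.58.1 in R 4.3.3 (lmFit, eBayes) was fitted to all transcripts, Dmrt1 KO minus control, two-sided, with 2 residual degrees of freedom and 7.97 from the prior. Errors are moderated standard errors. For partner and marker lists the brightest transcript stood for a gene. The procedure was tested on simulated data, drawn with the same spread for control and Dmrt1 KO arrays. That test could not check whether the lone control varies like the Dmrt1 KO arrays. The number of arrays limits the precision. Motif matches were counted in RefSeq promoters; the CArG and GC boxes were chosen after the sequences were seen.

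The genes, lists and tests were chosen with earlier results of these data known. Named are all measured junction genes, Dmrt1, the genes called in each list and, in each partner list, the 2 with the smallest p; others are said to be named after their values were seen. Alternatives left out each Dmrt1 KO array, normalised or centred again, removed the dimmest 25%, added 50 before log2, changed the prior or used a threshold of 0.1.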

Additional observations from a re-analysis of the deposited data

How the results depend on the processing

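No junction transcript passed under any alternative run, and the count of called junction transcripts was 0 throughout (limma), with 2 at an unadjusted p under 0.05 in each. Over the alternatives Vcl ran from -0.89 to -0.62 (adjusted p = 0.434 to 0.705) and Nectin3 NM_021496 from 0.86 to 1.00 (0.222 to 0.496). Without Dmrt1 KO replicate 3, Ctnna1 turned to 0.03 and Nectin2 to 0.00, and the median of the junction transcripts to 0.03. Leaving out each Dmrt1 KO array in turn, Ctnna1 ran from -0.20 to 0.03, Nectin2 from -0.15 to 0.00 and the median from -0.06 to 0.03. Of all transcripts 128 were called lower and 40 higher. With 50 added before log2 these were 84 and 15, and with the variance trend in the prior 69 were called higher. At a threshold of 0.1 there were 75 higher calls, and leaving out each Dmrt1 KO array in turn 58 to 62, the most without replicate 3. The cause was not tested. No partner list gained a call under any alternative. No paired analysis was possible because the samples used here hold 1 control array, which every alternative kept.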
